A study of Homo sapiens with 4 samples.

Results

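The collagen genes are the protein-coding genes whose symbol reads COL, digits, A, digits. Here 44 of them were followed through the chromatin of a breast cancer cell line with and without the gene CECR2. An ATAC-seq peak was taken as a collagen peak when it lay inside such a gene or within 10 kb of either end, a choice made by position and symbol. This gave 694 peaks of the 190348 in the table: 182 at fibrillar collagens, 111 at basement membrane collagens, 28 at type VI collagens and 373 at the others. Of these, 15 belonged to 2 neighbouring collagen genes and 72 were also near another gene.

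Collagens are triple helices of 3 chains, each chain the product of its own gene. Fibrillar collagens assemble into the banded fibrils of connective tissue, type IV chains form the sheet-like network under epithelia, and type VI forms beaded filaments around cells. FACIT collagens decorate fibrils, transmembrane collagens sit in the plasma membrane, and multiplexins (COL15A1 and COL18A1) lie near basement membranes and carry long sugar chains. In tumours the collagen matrix is made by stromal cells and by cancer cells, and it is known for its part in stiffness, invasion and adhesion.

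The 4 libraries came from LM2 cells, a line derived from MDA-MB-231 that spreads to the lung more readily than its parent. The 2 control libraries carry a non-targeting guide, and the 2 sg1 libraries carry a CECR2 deletion, the first of that name in the labels. CECR2 encodes a bromodomain protein of chromatin remodelling complexes. The cells were grown in DMEM with 10% FBS, penicillin and puromycin, and 50000 cells entered each transposition. The labels do not say whether the replicates were separate cultures or whether the deletion line is 1 clone, and p-values therefore rest on a spread between libraries that may be only technical. The deletion itself was not checked here, since open chromatin over CECR2 does not show whether its product is lost.

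After 109 peaks at the start of chromosome 1 were left out, 21002477 and 15561701 counts remained in control and 43519018 and 38924086 in sg1. The sg1 group was thus 2.25 times deeper, and the left-out peaks took 18.0% and 17.9% of control counts against 25.4% and 25.4% of sg1 counts. The part of the depth in the results below was not tested, and with the left-out peaks kept no collagen gene sum and no named collagen peak changed its call. Of the genes that mark LM2 and its parent line, 8 of 8 had a peak within 1 kb of a gene end, with a summed level of 264 to 267 CPM (counts per 1000000 counts, after TMM scaling) in control and 268 to 274 in sg1. Such a peak was also present for 5 of 6 fibroblast and pericyte markers (62.7 to 62.8 CPM in control, 60.2 to 60.3 in sg1), 1 of 4 endothelial markers (9.26 to 11.0 against 11.6 to 13.6), 4 of 5 haematopoietic markers (101 to 101 against 81.1 to 81.6) and 4 of 5 luminal markers (37.3 to 37.8 against 41.1 to 44.0). No gene-end peak was listed for DCN, PECAM1, VWF, CDH5 or ESR1. Some marker peaks were also near other genes. The CD68 peak, at a mean of 48.5 CPM in control and 33.6 in sg1, was also near EIF4A1, MPDU1, SENP3 and SOX15. The peaks of CD14, PDGFRB, ACTA2 and CDH1 were also near TMCO6, CSF1R, FAS and CDH3, in that order. KRT8 of the luminal list and KRT18 of the LM2 list share a peak, at a mean of 17.2 CPM in control, which counts in both sums. Open chromatin at a marker is not its expression.

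For 32 of the 44 genes a start site was listed in RefSeq (GRCh38.p14), and 22 of these had a peak within 1 kb of it. The 250 bases before the start are printed for 4 genes because they span the range of what was seen. The start peak of COL7A1 fell, that of COL5A1 rose, that of COL13A1 did not pass the test although the gene as a whole lost counts, and COL15A1, which lost the most, had no start peak. Capitals mark every match, on either strand, to AP-1 (TGANTCA), TEAD (GGAATG), SP/KLF (GGGCGG), the CCAAT box (CCAAT), the TATA box (TATAAA) or NF-kB (GGGA and CC with 4 free bases between). The windows are chr3:48595330-48595579 on the minus strand, and chr9:134641553-134641802, chr10:69801656-69801905 and chr9:98943657-98943906 on the plus strand.
COL7A1: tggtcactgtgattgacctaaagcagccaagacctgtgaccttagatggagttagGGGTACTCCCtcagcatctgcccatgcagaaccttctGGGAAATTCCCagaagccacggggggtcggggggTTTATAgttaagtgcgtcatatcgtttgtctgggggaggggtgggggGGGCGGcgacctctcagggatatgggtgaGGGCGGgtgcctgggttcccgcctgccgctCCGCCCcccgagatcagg
COL5A1: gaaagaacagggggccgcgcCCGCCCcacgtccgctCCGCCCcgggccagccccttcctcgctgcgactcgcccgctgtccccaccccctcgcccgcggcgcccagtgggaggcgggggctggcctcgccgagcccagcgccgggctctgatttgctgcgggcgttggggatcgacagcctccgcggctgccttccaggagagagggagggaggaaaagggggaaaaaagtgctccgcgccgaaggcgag
COL13A1: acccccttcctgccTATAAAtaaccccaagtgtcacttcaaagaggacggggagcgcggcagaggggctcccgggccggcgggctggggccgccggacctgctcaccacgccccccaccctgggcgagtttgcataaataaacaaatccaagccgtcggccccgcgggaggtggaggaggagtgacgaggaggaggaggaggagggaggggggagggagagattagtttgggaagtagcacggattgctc
COL15A1: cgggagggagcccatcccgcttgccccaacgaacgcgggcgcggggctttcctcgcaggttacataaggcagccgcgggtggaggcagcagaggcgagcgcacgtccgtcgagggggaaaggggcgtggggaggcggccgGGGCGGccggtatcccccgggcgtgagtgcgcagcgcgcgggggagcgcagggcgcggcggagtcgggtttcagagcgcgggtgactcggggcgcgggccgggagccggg
The COL7A1 window holds 3 SP/KLF matches, 1 TATA box and 3 NF-kB matches, that of COL5A1 2 SP/KLF matches, that of COL13A1 1 TATA box and that of COL15A1 1 SP/KLF match. Over all 35116 windows of this length, 42.6% hold an SP/KLF match, 10.7% a TATA box, 22.6% an NF-kB match, 32.0% a CCAAT box, 11.9% a TEAD match and 6.57% an AP-1 match. The 44 windows of collagen genes, several per gene in places, held these motifs in 24, 8, 12, 12, 3 and 1 cases. The 4 printed windows had a GC content of 60.8%, 74.0%, 64.0% and 76.8% in the order shown, against a median of 58.0% over all windows. A match is a run of letters and not a bound site.

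Of the 694 collagen peaks, 677 had enough counts to test and 17 did not. With edgeR's quasi-likelihood test at a false discovery rate (FDR) of 0.05, 122 were lower in sg1 cells (18.0% of those tested) and 63 were higher (9.31%). Over all 184717 tested peaks these shares were 16.8% and 11.5%, and over tested peaks inside or within 10 kb of any protein-coding gene they were 15.5% and 12.2%. The collagen shares were thus near the background, and the median log2 fold change of the collagen peaks was -0.01, against 0.02 over all tested peaks and 0.04 near protein-coding genes. DESeq2 called 72 lower and 29 higher, with a background of 10.5% and 4.98%, and leaving out sg1 replicate 1 gave 80 and 32, sg1 replicate 2 76 and 37.

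The called collagen peaks went in both directions. The median log2 fold change was -1.2 among the lower peaks and 0.78 among the higher ones, and 73 lower and 25 higher peaks moved by more than 2-fold. These are sizes of peaks picked by the test, and they were not set against those of all called peaks. In each of the 185 called peaks the sg1 libraries lay on one side of both control libraries. That separation was seen in 407 of the 677 tested collagen peaks, 60.1%, and in 63.7% of all tested peaks. At least 1 lower peak was found at 36 genes and at least 1 higher peak at 27. Both kinds occurred at 22 genes, and 3 genes (COL4A3, COL9A1 and COL11A2) had neither. The shares of all genes with such peaks were not counted.

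The collagen peaks were then counted by where they lay in their gene. Among 537 tested peaks in gene bodies, over 1 kb from a start or end, 104 were lower and 38 higher, a median of -0.07; over all gene bodies the shares were 18.2% and 9.73%. In the flanks, from 1 to 10 kb outside the gene, 9 of 77 were lower and 15 higher, against 16.5% and 9.49% over all flanks. Just beyond the limit, from 10 to 20 kb outside, 12 of 90 tested peaks fell and 6 rose. For that distance no share over all genes was counted, so these counts are not compared with the flanks. The tallest peak of a collagen gene was in the body in 26 of 44 genes and at the start in 6, and 13 of those 26 body peaks were lower in sg1 and 3 higher. Over all genes whose tallest peak lay in the body, 39.7% of these peaks were lower and 9.04% higher.

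By class, basement membrane genes had 24 lower and 7 higher of 111 tested peaks, with a median of -0.18. Fibrillar genes had 26 lower and 14 higher of 180, with a median of 0.08. Type VI genes had 5 lower and 3 higher of 27, with a median of 0.20, and the remaining genes 67 lower and 39 higher of 359, with a median of -0.01. Within the last class the multiplexins had 15 lower and 6 higher of 48, the FACIT collagens 27 and 10 of 138, the transmembrane collagens 13 and 6 of 76, and the network-forming collagens 8 and 7 of 52. COL26A1 and COL28A1 together had 1 lower and 8 higher of 37. No test compared the classes with each other.

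**Figure D1:**
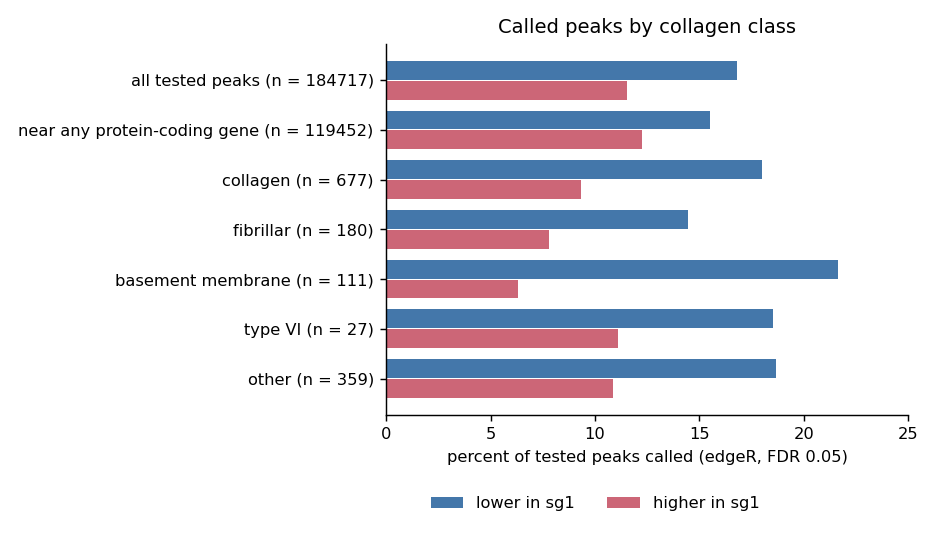
Bars give the percent of tested peaks called lower (blue) and higher (red) in sg1 by edgeR at an FDR of 0.05, for all tested peaks, for those near any protein-coding gene, for all collagen peaks and for each collagen class, with the number tested (n) in brackets. The collagen bars, 18.0% and 9.31%, lie near those of all tested peaks, 16.8% and 11.5%.

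Adding up all peaks of a gene gives 1 value per gene, so a gene with many peaks does not count many times. Of the 44 collagen sums, 19 were lower, 4 higher and 21 not called, against 26.4% lower and 24.1% higher over the 18548 protein-coding genes tested, whose median was 0.01. Large stretches of the genome shifted together between the groups, so each sum was also fitted relative to the median of the tested peaks within 2 Mb, leaving out 10 kb around the gene. On that scale 21 collagen sums were lower and 3 higher, against 29.5% and 13% of all genes. Below the median of their own region lay 35 of the 44, against 57.7% of all genes, and this difference was not tested. The 2 fits called 16 collagen genes alike. Of the 19 lower sums, 11 were lower under each of the 12 other settings tried, and of the 4 higher sums 1 was.

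**Figure D2:**
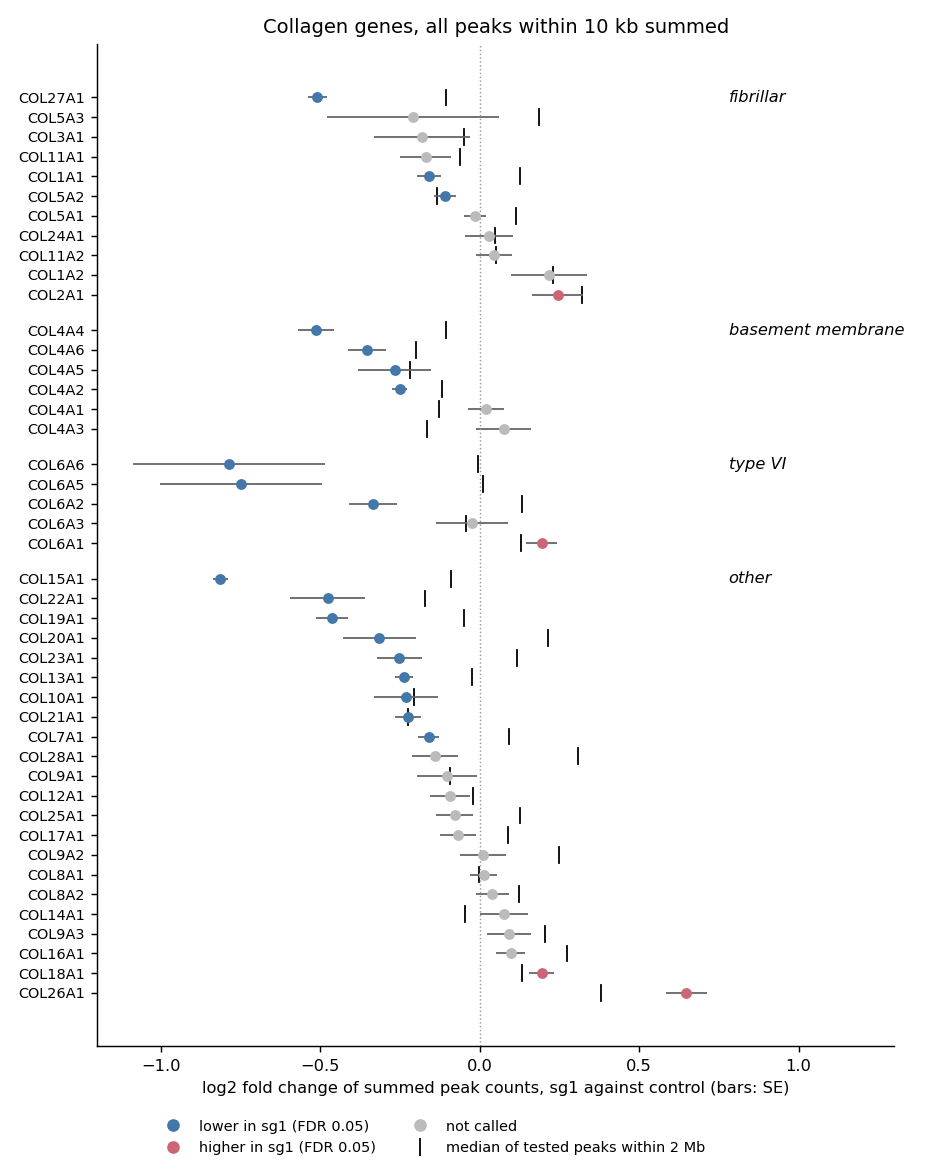
Points give the log2 fold change of the summed peak counts of each collagen gene, sg1 against control, with its SE, grouped by class and coloured by call; black ticks give the median of the tested peaks within 2 Mb. COL15A1 lies lowest at -0.81 and COL26A1 highest at 0.65, and 35 of the 44 points lie to the left of their tick, against 57.7% of all genes.

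In the accounts of single genes, levels are CPM of control replicates 1 and 2 and then of sg1 replicates 1 and 2, and the value in brackets is the log2 fold change, sg1 against control, with edgeR's adjusted p unless DESeq2 is named. Among the fibrillar collagens, COL27A1, a cartilage-associated fibrillar chain, lost the most. Its summed level went from 251 and 250 CPM to 174 and 178, a log2 fold change of -0.51 (SE 0.03, adjusted p = 8.84e-46). It had 9 lower and no higher peak among 26, and its region had a median of -0.11. The strongest was a body peak at chr9:114174996-114175792, 19.9 kb into the gene, which fell from 17.8 and 21.7 CPM to 5.79 and 7.03 (-1.62, SE 0.13). A body peak 132.8 kb into the gene, chr9:114287959-114288719, gave 32.6 and 25.2 CPM against 11.9 and 13.2 (-1.22, SE 0.10). Its start peak was lower too, 18.7 and 19.6 against 15.8 and 14.3 CPM (-0.34, adjusted p = 0.00853), although DESeq2 gave it an adjusted p of 0.0707.

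COL1A1 and COL1A2 encode the chains of type I collagen, the main protein of scar and bone. COL1A1 changed in both directions within a short stretch: the peak at its gene end, chr17:50199740-50201338, rose from 30.8 and 33.8 CPM to 41.0 and 43.7 (log2 fold change 0.39, SE 0.07, adjusted p = 0.000117). Just beyond it, chr17:50209574-50211114, rose from 14.1 and 16.3 to 23.1 and 22.1 CPM (0.58). On the other side of the gene the tallest peak of the locus, chr17:50177915-50178843, also near SGCA, fell from 78.6 and 74.7 to 52.8 and 54.2 CPM (-0.52, SE 0.06). The sum fell by 0.16 on the log2 scale, from 137 and 140 to 122 and 125 CPM, in a region whose median was 0.13. COL1A2 is open at a low level here. Its gene-end peak gave 1.80 and 1.57 CPM against 1.72 and 2.08 (0.16, adjusted p = 0.719), and 1 flank peak, chr7:94392102-94392374, rose from 0.438 and 0.718 to 1.63 and 1.62 CPM (1.53) in a region with a median of 0.23.

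COL5A1 and COL5A2 encode type V chains, which limit the width of type I fibrils. The COL5A1 start peak, chr9:134641450-134641889, rose from 11.7 and 13.3 CPM to 18.6 and 20.5 (log2 fold change 0.65, SE 0.11, adjusted p = 1.33e-05), and all sg1 values were above all control values. The sum over its 31 peaks, 160 and 162 CPM in control and 160 and 158 in sg1, was not called (-0.01), with 4 lower and 3 higher peaks; relative to its region it was lower (-0.13, adjusted p = 0.00121). COL5A2, with 56 peaks, had 5 lower and 4 higher. Its body peak at chr2:189370578-189371239 fell from 12.6 and 12.1 to 5.13 and 5.43 CPM (-1.23, SE 0.14). A small one at chr2:189404006-189404181 fell from 0.632 and 0.457 CPM to 0.0226 and 0 (-5.11, SE 0.89). This small peak had enough counts to test through the control libraries alone, and DESeq2 gave it no adjusted p. In the other direction chr2:189222438-189222973 rose from 1.6 and 2.02 to 3.64 and 3.98 CPM (1.09), and chr2:189350457-189350913 from 2.48 and 4.31 to 4.61 and 5.88 (0.66). DESeq2 did not call the last (adjusted p = 0.141), nor was it called without control replicate 1 (0.429) or sg1 replicate 2 (0.255). The COL5A2 sum, 169 and 181 against 163 and 160 CPM (-0.11), turned to 0.02 when set against its region, and was not called without sg1 replicate 2 or control replicate 2.

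The other fibrillar sums were small or uncalled. COL2A1, the main cartilage collagen, was higher, 30.0 and 30.0 CPM against 35.9 and 35.1 (log2 fold change 0.24, adjusted p = 0.00576), in a region with a median of 0.32. Relative to that region its value was -0.08, and without sg1 replicate 1 it was not called (adjusted p = 0.0825). COL11A1, a partner of type II fibrils, had 1 lower body peak, chr1:102941292-102941944, from 5.98 and 6.07 to 2.96 and 2.21 CPM (-1.21, SE 0.21). COL3A1, the type III collagen of soft tissue, had no peak within 1 kb of either end, and its 6 peaks added up to 8.36 and 9.2 CPM in control and 7.87 and 7.55 in sg1.

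The basement membrane genes sit as head-to-head pairs that share a start peak: COL4A1 with COL4A2, COL4A3 with COL4A4, and COL4A5 with COL4A6. The shared COL4A1 and COL4A2 start peak, chr13:110306844-110308016, rose from 17.4 and 18.3 to 20.7 and 21.9 CPM (0.26, SE 0.09, adjusted p = 0.035). DESeq2 did not call it (adjusted p = 0.163), and of the fits that left out 1 library only the one without control replicate 2 called it. The shared starts of the other pairs were not called (0.15 and -0.13).

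COL4A2, which encodes the second chain of the widespread type IV network, had the most called peaks of any collagen gene, 12 lower and 4 higher of 53 over 209 kb. Its tallest peak, chr13:110347462-110348477, 40.7 kb into the gene, fell from 63.0 and 61.6 to 44.8 and 48.2 CPM (log2 fold change -0.42, SE 0.06). The largest drop was at chr13:110371691-110372474, from 5.10 and 5.94 CPM to 0.475 and 0.609 (-3.34, SE 0.28, adjusted p = 2.63e-11). Further lower peaks lay 12.9, 23.0, 23.6, 33.8, 80.5, 81.2, 89.8, 116, 139 and 193 kb into the gene, with log2 fold changes from -1.88 to -0.24. The higher peaks were the start peak and those 112, 126 and 200 kb in. The second of these, chr13:110432974-110433474, rose from 0.681 and 0.652 to 3.62 and 2.28 CPM (2.14), and the third, chr13:110507175-110507530, from 0.486 and 0.196 to 1.45 and 1.19 (1.87). Apart from the start peak, the called peaks up to 89.8 kb were all lower, and lower and higher ones were mixed from 112 kb on. The sum fell from 417 and 407 to 347 and 345 CPM (-0.25, SE 0.02, adjusted p = 1.67e-20), while its region had a median of -0.12.

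The sum of COL4A1, which shares 7 peaks with its neighbour, was not called (0.02) but was called higher relative to its region (0.15, adjusted p = 0.026), and 1 of its body peaks, chr13:110247620-110248259, rose from 2.58 and 1.24 to 4.34 and 4.21 CPM (1.11). COL4A4, a chain of the kidney and lung basement membrane, fell as a sum from 68.0 and 72.6 to 50.3 and 47.9 CPM (-0.51, SE 0.06, adjusted p = 2.15e-16), in a region with a median of -0.11. Its peak at chr2:226995552-226996282, also near RHBDD1, held 54.6% of its control signal and halved, from 36.7 and 38.6 CPM to 18.1 and 19.5 (-1.0). The small peak next to it, chr2:226995231-226995535, fell from 3.40 and 3.59 to 1.11 and 1.09 CPM (-1.66). At COL4A4 2 weak peaks rose, chr2:226977715-226978215 (0.78) and chr2:227033457-227033668 (1.78), but DESeq2 called neither (adjusted p = 0.126 and 0.195). Each was lost without either sg1 library or without control replicate 2.

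COL4A5 and COL4A6 lie on the X chromosome, in a region with medians of -0.22 and -0.20. The COL4A6 sum fell from 63.3 and 63.1 to 48.9 and 50.1 CPM (-0.35, SE 0.06, adjusted p = 2.89e-08), with 6 of 26 peaks lower and none higher. One of them, chrX:108391656-108391886, had 31 counts over the control libraries and none over the sg1 libraries. Against a floor of 3 counts over the group the bound is 23.3-fold lower, which leaves out the sampling error of the control counts. The peak had enough counts to test through the control libraries alone, and DESeq2 gave it no adjusted p. Another, chrX:108267615-108267831, fell from 0.972 and 0.652 to 0.136 and 0.178 CPM (-2.38), a call lost without sg1 replicate 1 (adjusted p = 0.0559). The COL4A5 sum, 15.9 and 17.5 against 13.8 and 13.8 CPM (-0.27, adjusted p = 0.0391), was -0.05 relative to its region. It was not called by DESeq2 (0.0763) or without control replicate 2, sg1 replicate 1 or sg1 replicate 2.

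**Figure D3:**
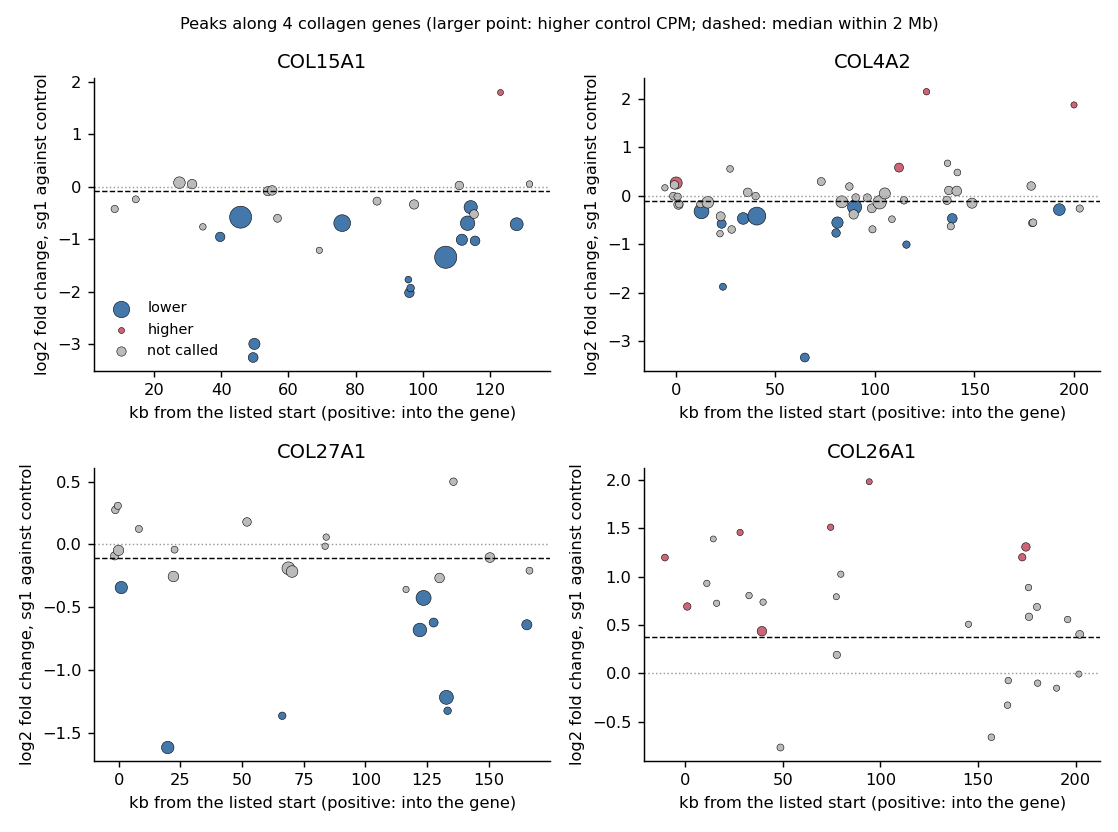
Each point is a tested peak of COL15A1, COL4A2, COL27A1 or COL26A1, placed by its distance in kb from the first listed start (positive into the gene) and by its log2 fold change, sized by control CPM and coloured by call; the dashed line is the median of tested peaks within 2 Mb. COL15A1 has 14 lower peaks from 39.7 to 128 kb from its start, the last of them just past the end of the gene, COL4A2 has a higher peak at its start, 9 lower ones up to 89.8 kb and a mix of both from 112 kb on, and all 8 called peaks of COL26A1 are higher.

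Type VI collagen is built from the chains of COL6A1 and COL6A2 with 1 further chain, and both genes lie in tandem on chromosome 21. Their 18 peaks run over 161 kb, in a region with a median of 0.13. At COL6A1 2 of 11 peaks rose and none fell, both in its flank. The taller, chr21:45973707-45975390, which holds 63.6% of the control signal of the gene, went from 46.0 and 51.1 to 54.4 and 58.3 CPM (0.22, adjusted p = 0.0147). DESeq2 gave 0.0548, the call was lost without control replicate 1 or sg1 replicate 2, and relative to the region the value was 0.09. The other, chr21:45973201-45973402, rose from 1.75 and 1.11 to 2.76 and 3.27 CPM (1.04), but was not called without sg1 replicate 2 (adjusted p = 0.0596). The gene-end peak of COL6A1 gave 5.01 and 4.57 CPM against 6.55 and 5.99 (0.38, adjusted p = 0.0979) and was not called. The sum rose from 75.5 and 80.3 to 88.3 and 89.5 CPM (0.19), and was 0.06 relative to its region.

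COL6A2 moved the other way, with a sum that fell from 41.4 and 39.0 CPM to 32.8 and 31.0 (log2 fold change -0.34, SE 0.08, adjusted p = 4.76e-05). Its start peak did not fall. It gave 4.42 and 4.70 CPM against 5.70 and 6.24 (0.39, adjusted p = 0.101). The loss sat at 2 peaks, one in the body at chr21:46121938-46122765, from 18.1 and 17.9 to 13.4 and 11.3 CPM (-0.54, SE 0.11), and one at the far end, chr21:46133343-46134310, 35.7 kb from the start and also near FTCD, from 10.5 and 9.2 to 3.73 and 3.63 CPM (-1.43, SE 0.16). Between them and the start, chr21:46116693-46117338 rose from 4.28 and 4.04 to 6.69 and 7.2 CPM (0.73).

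The remaining type VI genes held little signal. COL6A3, a longer chain of the same collagen, had no start peak, and 1 of its 5 peaks, chr2:237345975-237346241, was lower, 1.80 and 0.848 against 0.384 and 0.583 CPM (-1.49). DESeq2 did not call it (adjusted p = 0.0906), nor was it called without control replicate 1 or sg1 replicate 1. COL6A5 and COL6A6 had 3 and 2 peaks. Their sums fell from 3.36 and 3.40 to 2.04 and 1.98 CPM (-0.75) and from 2.67 and 2.0 to 1.3 and 1.45 CPM (-0.79). Both calls were lost without either sg1 library, and that of COL6A6 also in DESeq2 (adjusted p = 0.0769) and without control replicate 1. The peak behind COL6A6 was chr3:130594718-130595240, 1.99 and 1.44 against 0.384 and 0.101 CPM (-2.78), and that behind COL6A5 was chr3:130395974-130396274, 2.29 and 1.63 against 0.610 and 0.837 CPM (-1.46).

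COL15A1, a multiplexin of the zone between basement membrane and fibrils, lost the most of all 44 genes and also held the most signal. Its sum fell from 496 and 487 CPM to 279 and 280 (log2 fold change -0.81, SE 0.02, adjusted p = 3.55e-115), in a region with a median of -0.09. Of its 29 tested peaks 14 fell and 1 rose. The tallest, chr9:99050215-99051245, 107 kb into the gene, fell from 118 and 112 CPM to 47.4 and 43.1 (-1.35, SE 0.06, adjusted p = 3.44e-18). The second, chr9:98989032-98990265, fell from 112 and 112 to 74.6 and 75.3 CPM (-0.58). The third, chr9:99019399-99020395, fell from 48.6 and 52.7 to 31.0 and 31.4 CPM (-0.70). The steepest losses were at a pair of adjoining peaks near 50 kb: chr9:98993252-98993508 fell from 7.73 and 8.87 to 0.814 and 0.913 CPM (-3.26, SE 0.23), and chr9:98993601-98993908 from 14.4 and 12.9 to 1.63 and 1.80 CPM (-3.00, SE 0.17). A run of 3 peaks between chr9:99039518 and 99040370 fell by 1.77, 2.02 and 1.93 on the log2 scale. Peaks in the part of the gene before the first of these losses, such as chr9:98971007-98971840 at 17.6 and 13.4 against 16.3 and 16.8 CPM (0.08), were not called. The only higher one was small, 0.0972 and 0.196 against 0.520 and 0.482 CPM.

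COL18A1, the other multiplexin and the source of endostatin, had 1 lower and 5 higher of 19 tested peaks. Its body peak chr21:45417197-45418279 rose from 14.5 and 13.7 to 21.0 and 21.6 CPM (0.59, SE 0.10). Its start peak gave 13.6 and 14.5 CPM against 12.9 and 13.7 (-0.07) and was not called. The sum rose from 111 and 108 to 124 and 127 CPM (0.19, adjusted p = 1.18e-05), and was 0.06, and not called, relative to its region.

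Among the FACIT collagens 4 sums were lower and none higher. COL19A1 fell from 89.8 and 89.4 to 64.3 and 65.6 CPM (log2 fold change -0.47, SE 0.05, adjusted p = 2.37e-17), with 8 of 25 peaks lower and none higher. Its tallest peak, chr6:69917819-69918538, 51.6 kb into the gene, fell from 30.2 and 30.6 to 17.7 and 19.4 CPM (-0.72, SE 0.09). Its start peak, 16.2 and 15.8 against 17.5 and 17.3 CPM (0.12), was not called. COL22A1, found at tissue junctions, fell from 15.6 and 16.7 to 11.7 and 11.4 CPM (-0.48), with 4 of 11 peaks lower. COL20A1 fell from 16.0 and 17.7 to 13.8 and 13.1 CPM (-0.31, region 0.21), a call lost without control replicate 2 or either sg1 library. COL21A1 fell from 128 and 116 to 105 and 104 CPM (-0.23, adjusted p = 5.20e-07), as did its region (-0.22), and relative to it was not called (adjusted p = 0.984).

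COL12A1, a fibril-decorating collagen of tendon, had a start peak at 32.0 and 29.9 CPM in control and 31.2 and 28.8 in sg1 (-0.05), with overlapping groups. COL16A1 had a higher body peak, chr1:31669805-31670601, from 6.95 and 6.59 to 11.4 and 12.1 CPM (0.79). Its sum, and that of COL9A2, a cartilage FACIT chain, were not called (0.10 and 0.01) but lay in regions with medians of 0.27 and 0.25; relative to them they were -0.18 and -0.24, and called lower. With the library size as the only scaling, however, the COL16A1 sum was called higher (0.13, adjusted p = 0.0109).

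COL7A1 forms the anchoring fibrils that tie the epidermis to the dermis, and its start peak was the tallest of any collagen gene both in CPM and per length, at 59.4 CPM per kb in control. This peak, chr3:48595172-48596472, also near UQCRC1, fell from 78.3 and 76.3 to 59.1 and 64.2 CPM (log2 fold change -0.33, SE 0.06, adjusted p = 9.03e-05). Upstream, chr3:48598423-48598941, also near UQCRC1, fell from 11.5 and 11.7 to 4.93 and 4.18 CPM (-1.34, SE 0.15). The sum fell from 194 and 193 to 171 and 176 CPM (-0.16), in a region with a median of 0.09.

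Of the transmembrane collagens, COL13A1 and COL23A1 were lower. COL13A1, a collagen of cell adhesion sites, fell from 255 and 256 to 219 and 214 CPM (log2 fold change -0.24, SE 0.03, adjusted p = 1.17e-13), with 6 of 34 tested peaks lower and none higher. Its body peak chr10:69874319-69875038, 72.8 kb into the gene, fell from 22.0 and 23.1 to 11.8 and 12.3 CPM (-0.90, SE 0.10). Its start peak, 19.4 and 15.3 against 19.6 and 20.1 CPM (0.18, adjusted p = 0.178), was not called over all libraries and was called higher without control replicate 1 (adjusted p = 0.0118). COL23A1 had opposite changes near its far end, both also near PHYKPL: chr5:178239357-178240340 fell from 24.2 and 19.8 to 9.76 and 9.43 CPM (-1.2, SE 0.11), and chr5:178231891-178233117 rose from 14.9 and 14.0 to 21.3 and 19.7 CPM (0.50). Its sum, 45.9 and 42.0 against 38.5 and 35.4 CPM (-0.25), was not called without control replicate 1 (adjusted p = 0.0746) or sg1 replicate 2 (0.0941).

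COL25A1 had 4 lower and 4 higher of 23 tested peaks, and its sum was not called (-0.08) but was lower relative to its region (-0.2, adjusted p = 0.0017). Its peak chr4:108936907-108937437 rose from 0.972 and 1.37 to 3.03 and 2.97 CPM (1.38, SE 0.29). COL17A1, a hemidesmosome protein of keratinocytes, had a start peak of 7 and 9 control counts and 9 and 11 sg1 counts, too few to test, and its sum was not called (-0.07) but was lower relative to its region (-0.16, adjusted p = 0.0166). Of the network collagens, COL10A1, a marker of cartilage hypertrophy, was lower as a sum, 20.4 and 21.8 against 17.9 and 18.0 CPM (-0.23, adjusted p = 0.0461). All 12 of its peaks were also near another gene, its value relative to the region was -0.03, and the call was lost in DESeq2 (0.0825), with the library size as the only scaling (0.0862), with the replicate number as a block (0.0534), and without control replicate 2 or either sg1 library.

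COL26A1, a collagen first described in testis and ovary, was the gene with the largest gain. Its sum rose from 38.2 and 37.9 CPM to 61.3 and 58.1 (log2 fold change 0.65, SE 0.06, adjusted p = 3.59e-20), and 8 of 29 tested peaks rose while none fell. It lies on chromosome 7 in a region with a median of 0.38, and relative to it the value was 0.27 (adjusted p = 0.000172). The body peak chr7:101537097-101537746 rose from 4.72 and 4.04 to 10.8 and 11.0 CPM (1.31, SE 0.16), and chr7:101535310-101535785 next to it from 2.09 and 2.02 to 4.0 and 5.5 (1.2). The tallest, chr7:101401937-101402543, went from 7.34 and 7.11 to 10.1 and 9.43 CPM (0.44), close to the shift of its region. COL28A1, also on chromosome 7, had a sum of 41.1 and 40.7 against 38.0 and 36.1 CPM that was not called (-0.14), in a region with a median of 0.31. Relative to it the value was -0.45 and called lower (adjusted p = 1.53e-08).

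**Figure D4:**
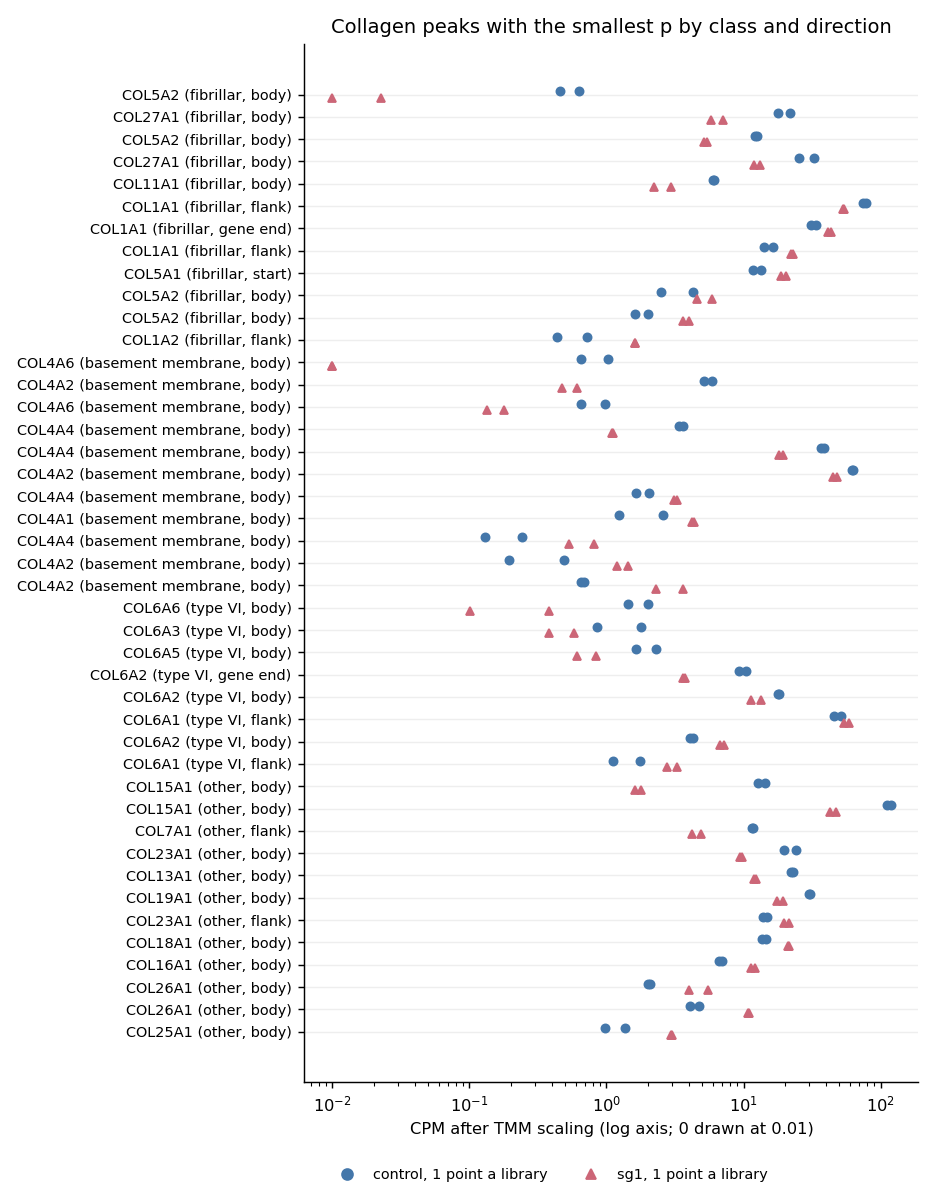
Points give the CPM of each library (blue circles for control, red triangles for sg1, log axis, 0 drawn at 0.01) at the collagen peaks with the smallest p in each class and direction. The libraries of the 2 groups are apart in every row, which the choice by p favours, and they are apart in 63.7% of all tested peaks. The pair of libraries of 1 group mostly lie close together, which that choice favours too.

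The start peaks were counted in the same way. Of 26 distinct peaks at a start, or at a gene end where no start was listed, 25 were tested: 3 were lower (COL7A1, COL27A1 and COL16A1), 7 higher (COL5A1, COL1A1, COL8A1, the shared COL4A1 and COL4A2 peak, COL21A1, COL9A2 and COL26A1) and 15 not called. Over all genes the tallest such peak was lower in 8.37% and higher in 30.9%, with a median of 0.16. DESeq2 called 1 lower and 3 higher, and without sg1 replicate 2 the counts were 1 and 3. COL8A1, a network collagen of vessels and cornea, rose from 17.0 and 17.8 to 21.9 and 23.4 CPM (0.38, adjusted p = 0.002), COL21A1 from 7.83 and 5.41 to 9.0 and 9.97 (0.49), COL9A2 from 11.3 and 12.1 to 14.2 and 15.1 (0.33) and COL26A1 from 2.38 and 1.83 to 3.68 and 3.20 (0.69, in a region at 0.39). COL16A1 fell from 1.36 and 2.61 to 1.18 and 0.913 CPM (-0.88, DESeq2 adjusted p = 0.211). At 15 of the 44 genes neither kind of peak was found, COL3A1, COL6A3 and COL15A1 among them.

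**Figure D5:**
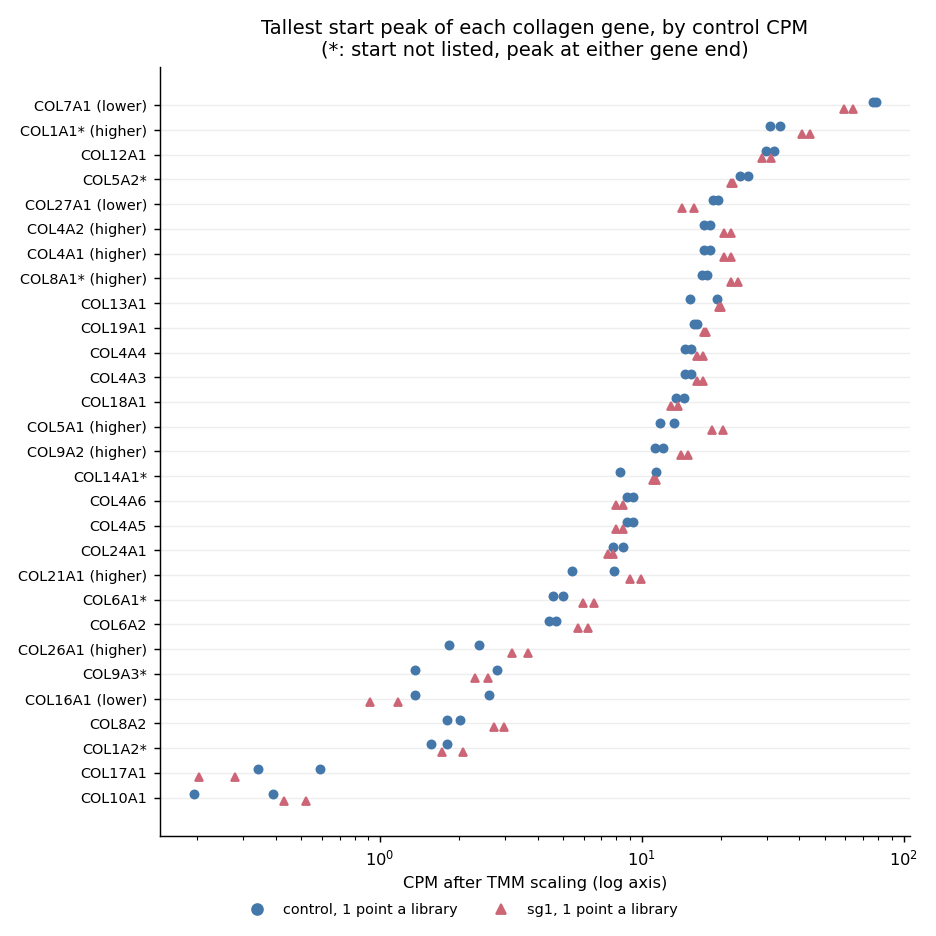
Points give the CPM of each library (blue circles for control, red triangles for sg1, log axis) at the tallest start peak of each collagen gene, ordered by control CPM; an asterisk marks genes with no listed start, shown by a gene-end peak, and the call is in brackets. COL7A1 stands at the top with 78.3 and 76.3 CPM in control and 59.1 and 64.2 in sg1. Of the 25 distinct peaks tested, 3 are lower, 7 higher and 15 not called.

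Other genes that make, bind and cut collagen were read by their tallest peak within 1 kb of either gene end. Over all genes such peaks were lower in 8.95% and higher in 30.2%, and their median was 0.15. Of 34 genes for collagen synthesis and crosslinking 31 had such a peak, 4 lower and 9 higher, with a median of 0.04; P3H4 and FKBP10 share 1 of the higher peaks. DESeq2 called 2 lower and 3 higher, as did the fit without sg1 replicate 2, and those without sg1 replicate 1 and control replicate 1 called 2 and 4, and 2 and 5. PLOD3, a lysyl hydroxylase on chromosome 7 whose peak is also near ZNHIT1, rose from 17.8 and 20.9 to 30.3 and 29.2 CPM (0.63). TGM2, a crosslinking transglutaminase, fell from 82.8 and 88.3 to 64.8 and 63.4 CPM (-0.41). PCOLCE, which enhances procollagen cleavage and is also on chromosome 7, with a peak also near FBXO24 and MOSPD3, fell from 4.91 and 5.81 to 2.10 and 1.62 CPM (-1.51). Of the receptors 6 of 11 had a peak, 1 lower and 3 higher, with a median of 0.17. MRC2, a collagen uptake receptor, rose from 30.2 and 32.4 to 38.5 and 38.5 CPM (0.30), GP6, the platelet receptor, with a peak also near RDH13, fell from 3.99 and 4.37 to 2.46 and 2.36 (-0.79), and ITGA2, an integrin chain, rose from 24.9 and 25.8 to 31.2 and 29.7 (0.27). DESeq2 called MRC2 only, and without sg1 replicate 1 the list had 0 lower and 1 higher, without sg1 replicate 2 0 and 3.

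The proteases that cleave collagen had 4 of 6 peaks lower and none higher, with a median of -1.51, and DESeq2 called the same number. MMP14, a membrane-bound collagenase, fell from 14.1 and 17.7 to 2.49 and 3.58 CPM (log2 fold change -2.39, SE 0.16, adjusted p = 2.14e-13). MMP9, a gelatinase, fell from 8.85 and 8.54 to 1.2 and 0.812 CPM (-3.10, SE 0.22). MMP1, an interstitial collagenase, fell from 6.08 and 5.28 to 1.74 and 2.03 CPM (-1.6, SE 0.22). The summed level of the 6 peaks was 36.6 to 39.7 CPM in control and 9.74 to 10.4 in sg1. Of the proteoglycans and glycoproteins of fibrils 11 of 14 had a peak, 3 lower and 2 higher, with a median of 0.03, and 1 lower and 1 higher in DESeq2 or without sg1 replicate 1, and 2 and 1 without sg1 replicate 2. SPARC, a collagen-binding glycoprotein, fell from 15.2 and 13.5 to 8.77 and 8.22 CPM (-0.76), HSPG2, the basement membrane proteoglycan perlecan, rose from 3.50 and 3.91 to 6.49 and 7.91 (0.96), and BGN, biglycan, with a peak also near HAUS7, fell from 1.26 and 0.522 to 0.113 and 0.330 (-2.07), which DESeq2 did not call (adjusted p = 0.0737).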

How the data were processed

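The data are ATAC-seq counts per peak of 4 libraries, 2 control and 2 sg1. Per the file headers, the authors' raw counts were made with featureCounts 1.6.0 on files of cut sites, so a fragment may be counted at both of its ends. The tools listed, per the submitters' processing notes, are deepTools 3.1.3, DESeq2 1.32, MACS2 2.2.4, SAMtools, Bowtie2, Trimmomatic 0.39 and CASAVA; neither their roles nor a genome build is given.

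The build was checked against RefSeq GRCh38.p14: 62.8% of 22198 listed starts lay under a peak, against 4.28% and 3.86% when peaks were shifted by 100000 bp either way. Exon and intron annotation was not used here. The 109 peaks within the first 250 kb of chromosome 1 were left out.

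After filterByExpr and TMM scaling, edgeR 4.0.16 under R 4.3.3 fitted group by its quasi-likelihood F test over all 184717 tested peaks or all 18548 gene sums, with Benjamini-Hochberg adjustment at an FDR of 0.05. Log2 fold changes are sg1 against control. The libraries of a group differed by a mean chi-square of 1.98 (control) and 2.00 (sg1) per peak. Control replicate 1 differed from sg1 replicate 1 by 10.4, and no other pair between the groups was compared. On simulated counts over 184717 peaks the fit recovered 2%, 12%, 44% and 82% of peaks changed by 1.25, 1.5, 2 and 3-fold. Few simulated peaks were changed, and all had a common dispersion. In the data 16.8% of tested peaks were called lower and 11.5% higher, so the recovered shares do not carry over to them. DESeq2 1.42.0, other scalings, filters, thresholds and windows, a replicate block, leaving out each library, and centring on the region (added after seeing the data) were the alternatives.

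Peaks named were up to 6 per class and direction with the smallest p, at most 2 of a gene; every gene sum past the FDR; the start or gene-end peaks of 14 set genes; the runs at COL4A2 and COL6A1 with COL6A2; and up to 3 genes of each pathway list. Peaks described beyond these, among them further ones of COL15A1, were chosen after their values were seen. Members and lists were chosen with earlier results of these data known.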

Additional observations from a re-analysis of the deposited data

Results flagged for a closer look

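The peaks left out at the start of chromosome 1 carry a signal outside the main measurement that is larger in the sg1 libraries than in the control libraries. They held 25.4% ± 0.0313 (SD, n = 2) of all counts in sg1 and 17.9% ± 0.0775 (SD, n = 2) in control. No collagen gene lies there, and with these peaks kept in library sizes and tests no collagen gene sum and no named collagen peak changed its call.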

How the results depend on the processing

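Counts below are given as lower and higher. DESeq2 gave 72 and 29 collagen peaks, 17 and 5 fibrillar, 11 and 4 basement membrane and 40 and 18 other peaks, 1 and 3 start or gene-end peaks, and 7 and 5 peaks of the pathway lists. An FDR of 0.01 gave 33 higher collagen peaks, 5 fibrillar, 4 basement membrane, 22 other, 3 at starts and 5 in the lists. Type VI had 1 higher peak when only peaks inside the gene, or within 1 kb, were used. Leaving out 1 library at a time gave 76 to 116 and 32 to 61 collagen peaks, 17 to 25 and 6 to 13 fibrillar, 12 to 23 and 3 to 6 basement membrane, 4 to 5 and 1 to 3 type VI, and 41 to 63 and 20 to 40 other peaks. It gave 12 to 18 and 3 to 5 gene sums, 1 to 3 and 3 to 7 start or gene-end peaks, and 7 to 11 and 6 to 13 peaks of the lists. The causes of these moves were not tested. The fits that left out 1 library also had fewer libraries to test with. Centring on the region reversed the sums of COL2A1 (-0.0769), COL5A2 (0.0241), COL9A2 (-0.24) and COL16A1 (-0.18). Each of these was called either in the main or in the centred fit, but not in both. Over all gene sums and alternatives 480 values kept their call, 34 lost the call, 10 gained it and 4 reversed. Over named peaks 577 kept their call, 29 lost it and 1 gained it. Values called in neither fit count as kept even where their sign changed, as with the COL1A2 sum (0.22, centred -0.01).

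No sign of a pairing by replicate number was seen: deviations of libraries with the same number correlated at -0.000258 over peaks and -0.00793 over gene sums. These deviations also hold counting noise, and the labels do not say whether the libraries were paired. With the replicate number as a block, 118 collagen peaks were lower and 60 higher, and 18 gene sums were lower and 4 higher.

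Depth limits the small peaks: 17 collagen peaks could not be tested. Small peaks low in either group could pass the count filter through the other group alone, so which small peaks were tested depends on that filter. With no filter on low counts 122 collagen peaks were lower and 62 higher, and all 51 named peaks kept their call.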
